A study of Mus musculus with 4 samples.

Results

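The AP-1 family immediate-early genes examined here were *Fos*, *Fosb*, *Fosl1*, *Fosl2*, *Jun*, *Junb*, *Jund*, *Atf3* and *Maff*, 9 of the 24454 genes in the count table. They are members of the FOS, JUN, ATF and small MAF families, and they were chosen with the difference between the groups already known, so their levels are given as a description with no test. Of the 9, 8 passed the filter on low counts and *Fosl1* did not. RNA-seq was performed on hearts of mice at postnatal day 7 (P7), with 2 Ctrl libraries (WH7 and WH8) and 2 miR-128OE libraries (WH9 and WH10). The miR-128OE mice carried both an α-MHC-tTA transgene and miR-128TetRE, a Tet-off system that drives miR-128 in cardiomyocytes from the α-MHC promoter once doxycycline (Dox) is withdrawn. Ctrl mice carried miR-128TetRE without the tTA driver, so the responder allele was shared by all 4 libraries and the tTA transgene was present in one group only. RNA was total RNA of the heart, in which all cell types are mixed, so fewer cells of a type and less RNA per cell cannot be told apart.

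Library totals were 12385863 counts in WH7, 8096870 in WH8, 12440553 in WH9 and 14359838 in WH10. The labels do not say whether the 2 libraries of a group came from separate animals, so p-values measure the spread between these libraries, which may be technical. The tissue label was checked on *Myl2*, the ventricular regulatory myosin light chain, which had 109034, 89171, 134999 and 159852 counts in WH7, WH8, WH9 and WH10. The precursor of the induced miRNA gave little check of the genotype. *Mir128-1* had 0 counts in each library, and *Mir128-2* had 0 in both Ctrl libraries, 2 in WH9 and 10 in WH10, where 3 counts were taken as the detection floor.

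A pair of features set libraries apart before any AP-1 gene was considered. Counts of *Xist*, the noncoding RNA that silences one X chromosome in females, were 14543 in WH7 and 11339 in WH8 but 94 in WH9 and 132 in WH10. Those of *Ddx3y*, on the Y chromosome, were 13, 7, 1442 and 1768 in the same order, and the condition and the sex of the mice therefore cannot be told apart. *Nppa*, which encodes atrial natriuretic peptide, had 34013 counts in WH7, 1943 in WH8, 5217 in WH9 and 12886 in WH10. WH7 therefore held far more atrial RNA than the other Ctrl library, and the AP-1 values are also given below without it.

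AP-1 is a dimeric transcription factor. JUN proteins pair with each other or with FOS proteins through a leucine zipper, FOS proteins need a JUN partner, and ATF3 and the small MAF proteins form dimers of their own within the same bZIP class. Several of the genes are immediate-early genes, which means that stretch, growth factors or stress can raise their transcription within minutes through factors already present in the cell, such as SRF and CREB, and that their mRNAs are degraded quickly. In the heart, transient induction of *Fos*, *Jun* and *Egr1* is a classic response to pressure load and to hypertrophic agonists.

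The sequences most relevant to this comparison are those of miR-128 and the places in the AP-1 mRNAs that match it. Mature miR-128-3p is encoded at chr1:128202404-128202424 (plus strand, *Mir128-1*) and chr9:112118644-112118664 (minus strand, *Mir128-2*) of RefSeq GRCm38.p6, with one mature sequence from both loci. Its seed, bases 2 to 8, is shown in capitals, and the capitals in the 3′UTR sites mark the matched letters (CACTGTG pairs with bases 2 to 8, and ACTGTGA pairs with bases 2 to 7 and ends in an A). Coordinates of the sites are those of the capital letters in GRCm38.
miR-128-3p: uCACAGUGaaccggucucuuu
*Fosb* 3′UTR, chr7:19303922-19303928, minus strand: tcttgctggagcgctttatACTGTGAat
*Fosl2* 3′UTR, chr5:32153760-32153766, plus strand: ctggggcggaaggggcaccCACTGTGtc
*Fosl2* 3′UTR, chr5:32155660-32155666, plus strand: tgtcatgaacttgggctggACTGTGAgc
*Atf3* 3′UTR, chr1:191171116-191171122, minus strand: ggggtgggaccacatcctcCACTGTGgc

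Seed matches were held by 3 of the 9 AP-1 genes, *Fosb*, *Fosl2* and *Atf3*. This was near the share over all genes, 30.9% of the 13488 tested genes with an annotated 3′UTR. The other 6, *Fos*, *Fosl1*, *Jun*, *Junb*, *Jund* and *Maff*, had no such letters in their 3′UTRs. With matches to bases 2 to 8 alone, only *Fosl2* and *Atf3* held one, beside 22.6% of all these genes. Since the genes were chosen for their levels in these libraries, those levels say nothing about the matches. A match of letters is a description of the transcript and not a site at which binding was measured.

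The promoters differed in what they held. Windows from 250 bases before to 50 after the RefSeq start were read for the 8 genes with an entry, which gave 10 windows because *Maff* has 3 starts. The letters TGACG, the core of a cAMP response element (CRE) and a letter string chosen after the sequences were seen, occurred on either strand in 6 of the 10 windows, belonging to *Fos*, *Fosb*, *Junb*, *Atf3* and *Maff*, beside 20.8% of 32851 promoter windows in the mouse. The complete palindrome TGACGTCA, which contains TGACG on both strands, occurred once, in a *Maff* window (1.79% of all windows). The windows of *Jun*, *Jund* and *Fosl2* contained none of these letters, and the window of *Jund* lay upstream of the gene's start in GENCODE. One stretch of 80 bases is shown for each gene that held these letters, to give their different surroundings. The genes were chosen for their levels in these libraries, so nothing about levels is read from the letters. Capitals mark TGACG or its reverse complement CGTCA, the full palindrome in *Maff*, and the TATAAA box of *Fos*.
*Fos*, chr12:85473794-85473873, plus strand: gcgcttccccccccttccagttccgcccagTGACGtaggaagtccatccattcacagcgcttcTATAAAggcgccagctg
*Fosb*, chr7:19310056-19310135, minus strand: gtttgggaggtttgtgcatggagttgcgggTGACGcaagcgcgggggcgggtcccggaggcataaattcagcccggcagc
*Junb*, chr8:84978805-84978884, minus strand: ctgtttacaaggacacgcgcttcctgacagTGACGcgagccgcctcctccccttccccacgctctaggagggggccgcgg
*Atf3*, chr1:191183291-191183370, minus strand: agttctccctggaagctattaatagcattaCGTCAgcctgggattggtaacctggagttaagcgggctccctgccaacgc
*Maff*, chr15:79347464-79347543, plus strand: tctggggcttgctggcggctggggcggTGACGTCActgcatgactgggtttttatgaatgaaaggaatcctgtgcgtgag

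In *Fos* the TGACG shown begins 66 bases before the transcription start, and a further TGACG begins 129 bases before it. Its TATAAA begins 33 bases before the start, and TATAAA occurred in 2 of the 10 windows, of *Fos* and of *Junb*, beside 13.6% of all windows. In *Junb* these letters begin at base 1 of the RefSeq transcript and not before it. That RefSeq start lies upstream of the gene's start in GENCODE. The AP-1 consensus itself, TGAGTCA or its reverse complement TGACTCA, occurred in no AP-1 gene window (5.2% of all windows), nor did the CArG box of SRF in these windows (1.63%). The EGR consensus GCGTGGGCG occurred in 1 window, of *Maff*, 88 bases before its start, and in 0.612% of all windows. An absence says only that these letters were not in these windows.

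*Fos* and its relatives are considered first, since FOS proteins work only as partners of JUN. *Fos* (chr12:85473890-85477273, plus strand, 4 exons) is the founding member of the family. It had 76 counts in WH7, 47 in WH8, 605 in WH9 and 706 in WH10. After scaling to a common library size, the normalized count was 68.0 ± 2.17 in Ctrl and 596 ± 3.68 in miR-128OE (SD, n = 2), so both miR-128OE libraries lay far above both Ctrl libraries and the libraries of a group differed little. The level was 8.73 times that of Ctrl, a log2 difference of 3.13 ± 0.13 (SE), which ranked 26th from the top among the 14266 genes tested.

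*Fosb* (chr7:19302696-19310051, minus strand) encodes a FOS protein that persists under chronic stimulation in neurons through a truncated splice form. Its counts were low, at 37 and 26 in WH7 and WH8 and 107 and 106 in WH9 and WH10. The normalized count was 35.3 ± 2.06 in Ctrl and 97.5 ± 11.9 in miR-128OE (SD, n = 2), with no overlap between the groups. The log2 difference was 1.47 ± 0.24 (SE), and this SE was the largest among the 8 tested AP-1 genes. Gene-level counts do not separate the full-length and truncated forms.

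*Fosl2*, which encodes FRA-2, differed least. This gene (chr5:32135801-32157842, plus strand) had 401 and 252 counts in Ctrl against 459 and 505 in miR-128OE, or a normalized count of 361 ± 7.46 and 440 ± 21 (SD, n = 2). The ranges of the groups did not overlap, but the log2 difference was only 0.28 ± 0.10 (SE), and with all 4 libraries *Fosl2* did not pass the adjusted threshold used for all genes, although it passed with the offset for GC content and length. *Fosl1*, which encodes FRA-1 and lies at chr19:5447547-5455946 on the plus strand, had almost no counts. It had 0, 2, 0 and 2 counts in WH7, WH8, WH9 and WH10, all under the floor of 3, so no fold change is given. In CPM, which relates each count to its own library's total, this floor stood at 0.242, 0.371, 0.241 and 0.209, and it covers counting error only. Exons of *Fosl1* overlap those of *Ccdc85b* on the opposite strand, which had 1135, 658, 968 and 1187 counts in the same order. How the counting treated strand is not given, so reads from the shared stretch may not have been counted for *Fosl1*.

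Among the genes for JUN proteins, *Junb* differed most. *Junb* (chr8:84974484-84978718, minus strand), whose product is an immediate-early JUN protein that activates less strongly than JUN at many promoters, had 162 and 92 counts in Ctrl against 543 and 666 in miR-128OE. Its normalized count was 139 ± 12.8 in Ctrl and 549 ± 15.9 in miR-128OE (SD, n = 2), a ratio of 3.92 and a log2 difference of 1.97 ± 0.12 (SE). The 3′ end of *Junb* overlaps exons of *Prdx2* on the opposite strand, and how the counting treated strand is not given in the sources used here. *Prdx2*, which encodes a peroxiredoxin, had 4632, 2907, 6680 and 7649 counts in WH7, WH8, WH9 and WH10 and a log2 difference of 0.65, so reads from the shared stretch may sit in either gene.

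*Jun* (chr4:95049034-95052222, minus strand, 1 exon) encodes c-JUN, the strongest activator of the family. It had 1571 counts in WH7, 910 in WH8, 2785 in WH9 and 3282 in WH10, and the normalized count was 1361 ± 106 in Ctrl and 2759 ± 2.15 in miR-128OE (SD, n = 2). Each miR-128OE library was thus about 2 times the Ctrl mean, with a log2 difference of 1.02 ± 0.08 (SE). *Jund* (chr8:70698949-70700616, plus strand, 1 exon), the member that most cells express constitutively, had 2034, 1021, 3154 and 3549 counts in the same order. Its normalized count was 1652 ± 295 in Ctrl and 3054 ± 97.4 in miR-128OE (SD, n = 2), and the log2 difference was 0.88 ± 0.11 (SE). The Ctrl libraries differed more for *Jund* than for any other tested AP-1 gene in normalized counts, with WH7 at 1860 and WH8 at 1443. Antisense genes overlap the exons of both, *Junos* at *Jun* and *Gm11175* at *Jund*, and without a stated use of strand their reads cannot be told apart.

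The remaining pair belongs to neighbouring bZIP families. *Atf3* (chr1:191170296-191218039, minus strand), a stress-induced ATF protein that often represses, had 135 and 76 counts in Ctrl against 188 and 256 in miR-128OE. The normalized count was 115 ± 11.3 in Ctrl and 201 ± 20.6 in miR-128OE (SD, n = 2), and the log2 difference was 0.79 ± 0.16 (SE). *Maff* (chr15:79346621-79359076, plus strand), a small MAF protein with no activation domain of its own, had 107 and 59 counts in Ctrl against 154 and 161 in miR-128OE. Its normalized count was 90.6 ± 10.2 in Ctrl and 144 ± 12.1 in miR-128OE (SD, n = 2), with a log2 difference of 0.65 ± 0.18 (SE). The groups of neither gene overlapped.

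**Figure D1:**
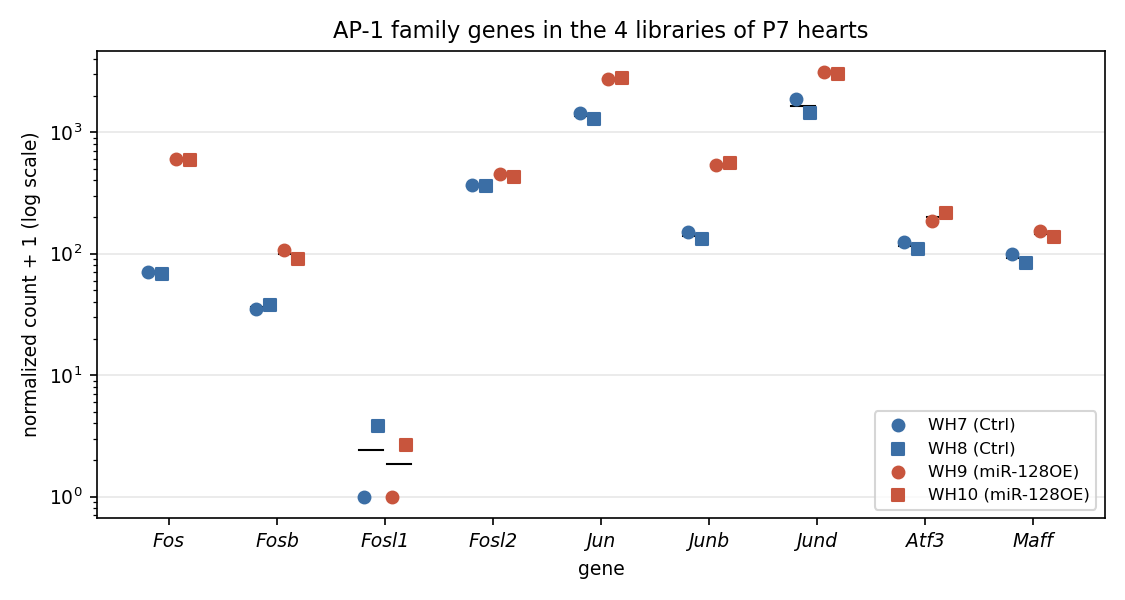
Normalized counts plus 1 (log axis) of the 9 AP-1 genes, with one point per library (Ctrl blue, miR-128OE red) and a black line at each group mean. Both miR-128OE points lie above both Ctrl points for 8 genes, widest apart for *Fos* (68.0 against 596), while *Fosl1* stays near the bottom of the axis in all 4 libraries.

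Both miR-128OE libraries lay above both Ctrl libraries for all 8 AP-1 genes that were tested, beside 33.7% of all genes tested. At an adjusted p under 0.05 (edgeR's quasi-likelihood test, Benjamini-Hochberg adjusted), 31.5% of all genes passed, 16.5% higher and 15.0% lower in miR-128OE, and 7 of the 8 AP-1 genes were among the higher ones. *Maff* did not pass by DESeq2 or without WH9, and neither *Atf3* nor *Maff* passed without WH10. Since the genes were picked from this contrast, nothing is read from these counts. The median log2 difference of the 8 was 0.95, and that of all genes tested was -0.01. Without WH7, the Ctrl library rich in atrial RNA, the median of the 8 was 1.09, with *Fos* at 3.16, *Junb* at 2.08, *Jund* at 1.08 and *Fosl2* at 0.30. *Jun*, *Atf3* and *Maff* were then at 1.10, 0.91 and 0.78, while *Fosb* went the other way, from 1.47 to 1.40. Without WH8 the median was 0.83, with *Fos* at 3.10, *Junb* at 1.89, *Jund* at 0.72 and *Fosl2* at 0.26. *Fosb*, *Jun*, *Atf3* and *Maff* were then at 1.52, 0.945, 0.71 and 0.56.

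Levels were compared between genes only per length, as CPM divided by the kilobases of merged GENCODE exons, which understates genes with long annotated UTRs such as *Fosl2* and *Fosb*. On this scale *Jund* was the most abundant mRNA, at 94.7 and 73.5 CPM per kb in Ctrl and 159 and 152 in miR-128OE, followed by *Jun* at 38.3 and 34.3 in Ctrl and 73.4 and 73.5 in miR-128OE. The next places in Ctrl were held by *Junb* (5.47 and 4.80) and *Atf3* (4.87 and 4.24), whose ranges overlapped, and then by *Fosl2* (3.22 and 3.13 CPM per kb) and *Maff* (3.20 and 2.73), whose ranges overlapped too. *Fos* came after them at 2.51 and 2.40, and *Fosb* at 0.46 and 0.50.

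In miR-128OE the order below *Jun* was different. *Fos*, at 21.6 and 21.4 CPM per kb, and *Junb*, at 19.9 and 20.7, took the next places without overlapping. *Atf3* followed at 7.34 and 8.49, *Maff* at 4.99 and 4.43, *Fosl2* at 3.99 and 3.73, and *Fosb* at 1.44 and 1.21. *Fos* thus moved from the place between *Maff* and *Fosb* to that just under *Jun*.

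The composition of the FOS group shifted accordingly. Summed over *Fos*, *Fosb*, *Fosl1* and *Fosl2*, the level was 6.19 and 6.14 CPM per kb in Ctrl and 27.1 and 26.5 in miR-128OE. *Fos* made up 40.6% and 39.1% of this sum in Ctrl and 79.9% and 81.1% in miR-128OE, whereas the share of *Fosl2* was 52.0% and 50.9% in Ctrl and 14.7% and 14.1% in miR-128OE. The main FOS mRNA was therefore *Fosl2* in both Ctrl libraries and *Fos* in both miR-128OE libraries.

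The JUN group kept its order. Summed over *Jun*, *Junb* and *Jund*, the level was 138 and 113 CPM per kb in Ctrl and 252 and 246 in miR-128OE, and *Jund* accounted for 68.4% and 65.3% in Ctrl and 63.0% and 61.7% in miR-128OE. The share of *Jun* was 27.6%, 30.4%, 29.1% and 29.9% in WH7, WH8, WH9 and WH10, a range in which the groups overlapped. *Junb* made up 3.95% and 4.27% in Ctrl and 7.87% and 8.40% in miR-128OE. JUN mRNAs exceeded FOS mRNAs in every library, by 22.4 and 18.3 times in Ctrl and by 9.32 and 9.31 times in miR-128OE.

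**Figure D2:**
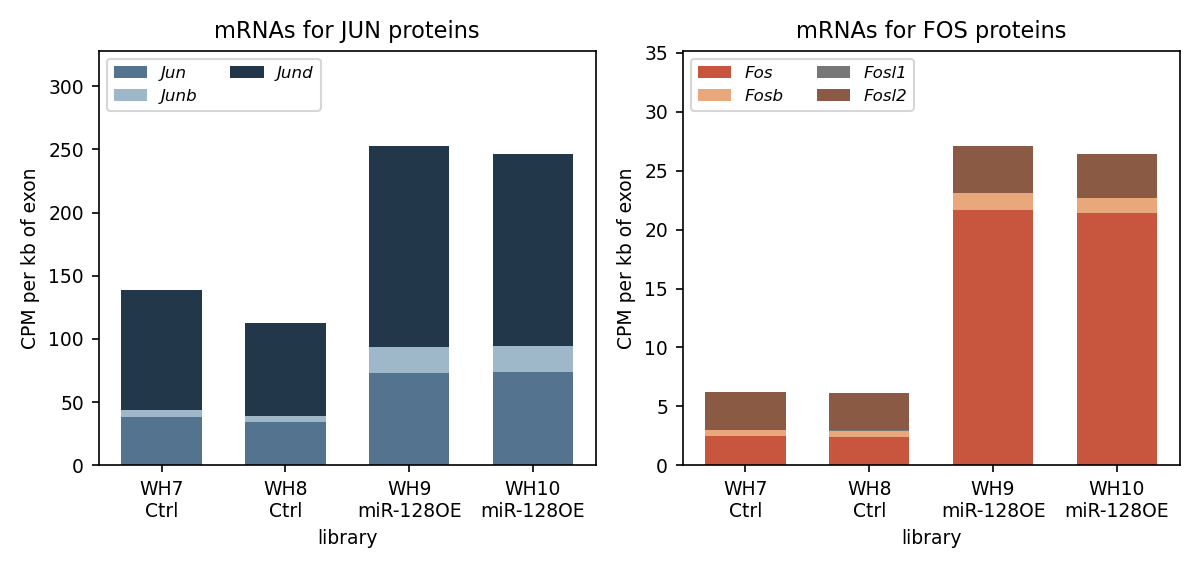
Stacked bars of CPM per kb of exon in each library for the genes of JUN proteins (left) and FOS proteins (right), each axis starting at 0 on its own scale. *Jund* fills most of every JUN bar (61.7% to 68.4%), while *Fos* grows from 39.1% and 40.6% of the FOS bar in Ctrl to 79.9% and 81.1% in miR-128OE.

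The 3′UTRs and exon numbers of the mRNAs were also read, and they varied among the 9 genes. Immediate-early mRNAs are degraded quickly, so features tied to decay are not independent of how the genes were chosen. Rapid decay of *Fos* mRNA is a textbook property that depends on AU-rich elements, whose core is ATTTA in the DNA letters used here. All 9 AP-1 genes had at least 1 ATTTA in the 3′UTR, beside 70.1% of tested genes with an annotated 3′UTR. *Fos* had 4 in 815 bases, or 4.91 per kb, a rate higher than that of 94.8% of genes. *Junb* had 2 in 485 bases, or 4.12 per kb, *Maff* 3.28 per kb and *Jun* 3.24 per kb, each well over the median of 1.43 per kb. *Atf3* had 2.53 per kb, and *Jund*, *Fosl2* and *Fosl1* had 1.88, 1.72 and 1.57 per kb. The lower end was *Fosb*, with 1 in 2302 bases or 0.434 per kb. *Jun* and *Jund* consist of a single exon. *Junb* was also listed with 1 exon, but its exons cover 2301 of the 4235 bases of the annotated gene, so that number does not describe its whole annotation. The other 6 were listed with 3 or 4.

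AP-1 genes are transcribed in response to kinase cascades and to factors already in the nucleus, and these were examined next in lists of named genes, each set beside the 16.5% of all genes that were higher and the 15.0% that were lower. Of 16 tested factors upstream of *Fos* and *Jun*, 3 rose, 3 fell and 10 did not pass, with a median log2 difference of -0.04. *Srf*, the factor that binds the serum response element of *Fos*, had 934, 563, 1954 and 2244 counts in WH7, WH8, WH9 and WH10, and it rose by 1.21 ± 0.08 on the log2 scale (SE, edgeR's quasi-likelihood test, Benjamini-Hochberg adjusted p = 2.74e-05). *Creb1*, the cAMP-responsive factor that binds CREs, fell by 0.53 ± 0.08 with 1052 and 681 counts in Ctrl against 672 and 792 in miR-128OE (adjusted p = 0.00138, same edgeR test). *Mef2c*, a MADS-box factor of muscle, fell by 0.42 ± 0.08 (adjusted p = 0.00322, same edgeR test). Leaving out WH9 lowered the calls over the whole table from 2347 higher and 2143 lower genes to 897 and 667, and leaving out WH10 lowered them to 1265 and 1020, so calls were lost across the table and not in the lists alone. Without WH9, 1 upstream factor rose and 1 fell, and *Mef2c* did not pass without either miR-128OE library.

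Among 24 kinases of the MAP kinase cascade, 6 rose, 2 fell and 16 did not pass, and the median was 0.03. The smallest p-values belonged to *Rps6ka2*, an ERK-activated kinase that fell by 0.60 ± 0.11, and to the ERK activator *Map2k1* and the p38 activator *Map2k3*, which rose by 0.56 ± 0.12 and 0.45 ± 0.09 on the log2 scale (adjusted p = 0.00419, 0.00637 and 0.00658 by edgeR's quasi-likelihood test, Benjamini-Hochberg adjusted). These are mRNA levels of kinases, whose activity was not measured here. Kinase mRNAs were thus spread on both sides of 0. *Map2k1* did not pass without WH9, *Rps6ka2* did not pass without WH10, and *Map2k3* did not pass without either miR-128OE library. Without WH9, 0 kinases rose and 1 fell, with the median at 0.06, without WH10, 2 rose and 1 fell, and without WH7, 7 rose and 5 fell.

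The MAP kinase phosphatases, which switch these kinases off and are themselves induced by them, included *Dusp1*, whose difference lay between those of *Junb* and *Fos*. It had 643 and 383 counts in Ctrl against 3074 and 3594 in miR-128OE, a rise of 2.42 ± 0.09 on the log2 scale (adjusted p = 4.85e-07 by edgeR's quasi-likelihood test, Benjamini-Hochberg adjusted). *Dusp6* and *Dusp8* rose by 0.70 ± 0.10 and 0.66 ± 0.11 (adjusted p = 0.000867 and 0.00241, same edgeR test). Of the 9 tested phosphatases, the other 6 did not pass. With all 4 libraries, none was lower at an adjusted p under 0.05 in edgeR's quasi-likelihood test or DESeq2, and 0 were lower at an unadjusted p under 0.05 in that edgeR test.

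Many other immediate-early genes, though not all, were higher with the AP-1 genes. Of 29 tested, 18 rose, 11 did not pass and the median log2 difference was 0.88, beside a median of 0.95 for the AP-1 genes and -0.01 for all genes. *Ccn1*, a secreted matrix protein induced by stretch, had 493, 252, 3471 and 4309 counts in WH7, WH8, WH9 and WH10 and rose by 3.12 ± 0.11 on the log2 scale. *Nr4a1*, an orphan nuclear receptor, had 248, 163, 1527 and 1914 counts and rose by 2.77 ± 0.09. The zinc finger factor *Egr1* had 548, 271, 2648 and 3196 counts and rose by 2.57 ± 0.12. Their adjusted p-values were 5.75e-07, 4.04e-07 and 2.44e-06 by edgeR's quasi-likelihood test, Benjamini-Hochberg adjusted, and in each the 2 miR-128OE libraries lay above the 2 Ctrl libraries.

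Of the 29, 26 had a positive log2 difference, while the median of all genes tested was -0.01. In 23 of the 29 both miR-128OE libraries lay above both Ctrl libraries, beside 33.7% of all genes tested. The list was chosen with earlier results of these data known, so nothing is read from these counts. *Myc*, a classic immediate-early gene of the cell cycle, had 110 and 73 counts in Ctrl against 105 and 119 in miR-128OE, with a log2 difference of 0.00 ± 0.18 (adjusted p = 0.992, edgeR's quasi-likelihood test, Benjamini-Hochberg adjusted). The lowest value in the list, chosen after the values were seen, was that of *Arc*, a gene best known in neurons, with 14, 16, 6 and 8 counts and a log2 difference of -1.40. No gene of the list was lower at the adjusted threshold in edgeR's quasi-likelihood test or DESeq2, 1 was lower in edgeR's likelihood ratio test, and 1 was lower at an unadjusted p under 0.05.

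**Figure D3:**
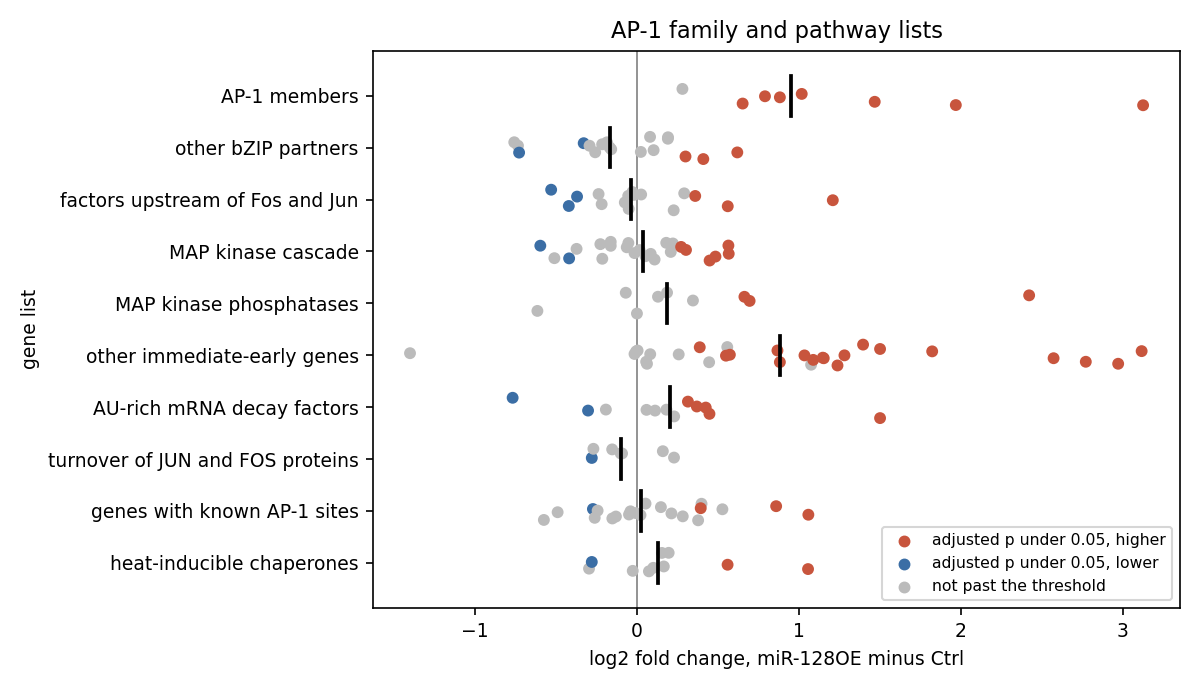
Log2 fold changes (miR-128OE minus Ctrl, horizontal axis) of the tested genes in each list (vertical axis), with one point per gene and a black line at the list's median. The medians of the AP-1 genes (0.95) and of the other immediate-early genes (0.88) lie to the right of those of the other pathway lists and the chaperones. Those range from -0.17 to 0.21, and the marker lists of cell types are not part of this ranking.

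The genes outside the family whose profiles over the 4 libraries were most like the mean of the tested AP-1 genes were sought among 10379 genes with a mean log2 CPM of at least 3. The measure was the Euclidean distance between centred log2 CPM values, and the mean AP-1 profile was -0.56, -0.70, 0.65 and 0.61 in WH7, WH8, WH9 and WH10. The nearest were *Btg2*, an antiproliferative immediate-early gene, at a distance of 0.0283, the small GTPase gene *Gem* at 0.0463, *Srf* at 0.0608, *Rrad*, a GTPase gene of muscle related to *Gem*, at 0.0701, and *Pip5k1b*, a phosphoinositide kinase gene, at 0.0738. *Btg2* had 587, 343, 1247 and 1407 counts and *Gem* 71, 41, 156 and 183. With 4 libraries such likeness is mostly a difference between the groups of about the same size.

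AP-1 activity is limited by partners, by mRNA decay and by protein turnover. Among 18 other bZIP partners, 3 rose, 2 fell and 13 did not pass, and the median log2 difference was -0.17. Over the alternatives this median ranged from -0.265 with total counts to -0.07 without WH7. *Mafk*, a small MAF gene like *Maff*, rose by 0.62 ± 0.11, and *Nfe2l1*, which encodes a CNC factor that pairs with small MAF proteins, rose by 0.41 ± 0.08, whereas the large MAF gene *Maf* fell by 0.73 ± 0.15 on the log2 scale. The adjusted p-values were 0.00325, 0.00499 and 0.00654 (edgeR's quasi-likelihood test, Benjamini-Hochberg adjusted). *Nfe2l1* did not pass without WH9, and *Maf* did not pass without either miR-128OE library. *Mafg*, a small MAF gene named after its value was seen, was the other gene that fell, by 0.33 on the log2 scale and just under the threshold (adjusted p = 0.05 as rounded, same edgeR test), so the small MAF genes *Maff*, *Mafk* and *Mafg* did not share a direction. Without WH9, 1 partner rose and 0 fell, without WH10, 2 rose and 0 fell, and without WH8, 1 fell.

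Of 12 factors of AU-rich mRNA decay, 5 rose, 2 fell and 5 did not pass. *Zfp36*, which encodes the decay factor tristetraprolin and also belongs to the immediate-early list, had 214 and 191 counts in Ctrl against 688 and 735 in miR-128OE and rose by 1.50 ± 0.15 on the log2 scale (adjusted p = 0.00016, edgeR's quasi-likelihood test, Benjamini-Hochberg adjusted). Its relative *Zfp36l2* rose by 0.45 ± 0.10, and *Tia1*, a translational silencer that binds AU-rich mRNAs, fell by 0.77 ± 0.09 (adjusted p = 0.00882 and 0.00042, same edgeR test). *Zfp36l2* did not pass without WH9. Without WH9, 1 decay factor rose and 1 fell. Of 7 genes for the turnover of JUN and FOS proteins, 1 passed. *Fbxw7*, the ubiquitin ligase subunit that recognises c-JUN, fell by 0.28 ± 0.08 (adjusted p = 0.0237, same edgeR test), while *Cop1*, also a ubiquitin ligase, had a log2 difference of 0.23 ± 0.09 (adjusted p = 0.0885, same edgeR test). With all 4 libraries, none of the 7 was higher at the adjusted threshold in edgeR's quasi-likelihood test or DESeq2, and 1 was higher at an unadjusted p under 0.05. At the adjusted threshold 1 was higher with the offset for GC content and length and when either Ctrl library was left out. *Fbxw7* did not pass by DESeq2 or without either miR-128OE library.

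Genes with known AP-1 sites were also listed. Of 21 tested, 3 rose, 1 fell and 17 did not pass, and the median log2 difference was 0.02 beside -0.01 for all genes. At an unadjusted p under 0.05, 6 were higher and 1 was lower. *Nqo1*, a quinone reductase that is also a target of NRF2, had 102 and 64 counts in Ctrl against 199 and 222 in miR-128OE and rose by 1.06 ± 0.16 on the log2 scale. The metallothionein gene *Mt1* rose by 0.86 ± 0.09 and the hyaluronan receptor gene *Cd44* by 0.39 ± 0.10. The adjusted p-values were 0.00128, 0.000234 and 0.0173 (edgeR's quasi-likelihood test, Benjamini-Hochberg adjusted). The 1 gene that fell, named after its value was seen, was *Ccnd1*, which encodes cyclin D1, at -0.27 (adjusted p = 0.0369, same edgeR test). *Cd44* did not pass by DESeq2, with total counts or without either miR-128OE library, and the list gave 6 higher genes without WH7, 4 lower without WH8, and 2 higher and 0 lower without WH9 or WH10. The list holds genes from several tissues, and whether AP-1 bound any of them was not measured.

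Immediate-early genes can be induced while a heart is being dissected, and heat-inducible chaperones were listed beside them for that reason. Of 10 tested, 2 rose, 1 fell and 7 did not pass, with a median log2 difference of 0.13. *Hspb1* rose by 1.06 ± 0.08 and *Bag3* by 0.56 ± 0.08, both of which protect muscle proteins, whereas *Hsp90aa1* fell by 0.28 ± 0.08 (adjusted p = 4.1e-05, 0.000877 and 0.0294 by edgeR's quasi-likelihood test, Benjamini-Hochberg adjusted). *Hsp90aa1* did not pass without either miR-128OE library. The part of sample handling in the AP-1 values was not tested.

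Marker lists of the cell types that a heart sample can hold were set beside the AP-1 values. The cardiomyocyte list, 12 genes led by *Myl2*, summed to 57290 and 61910 CPM in Ctrl and 77080 and 75020 in miR-128OE, with 6 genes higher and 2 lower. The atrial list of 4 genes, led by *Myl7*, summed to 5882 CPM in WH7, 702 in WH8, 2110 in WH9 and 2702 in WH10, so the Ctrl libraries lay on either side of both miR-128OE libraries. The AP-1 genes summed to 351 and 298 CPM in these Ctrl libraries and to 672 and 660 in miR-128OE. The part of atrial RNA in the AP-1 values was not tested.

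Fibroblast markers (8 genes, most abundant *Col3a1*) summed to 9324, 5995, 8188 and 8732 CPM in WH7, WH8, WH9 and WH10, and endothelial markers (8 genes, led by *Fabp4*) to 3079, 3146, 3350 and 3129, and the groups overlapped in both lists. Smooth muscle and pericyte markers (8 genes) summed to 1941 and 1837 CPM in Ctrl and 2380 and 2703 in miR-128OE, where the leading gene *Acta2*, smooth muscle actin, rose by 0.94 ± 0.10 on the log2 scale (adjusted p = 0.00029, edgeR's quasi-likelihood test, Benjamini-Hochberg adjusted) and *Myh11*, the myosin that defines smooth muscle, fell by 0.64. Of the 8, 3 rose, 1 fell and 4 did not pass.

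Immune markers were low. Macrophage genes (8, led by *C1qa*) summed to 152, 112, 111 and 112 CPM in WH7, WH8, WH9 and WH10, neutrophil genes (4 of 6 tested, led by *S100a9*) to 44.4, 48.0, 34.9 and 37.2, and lymphocyte genes (3 of 6 tested, led by *Cd79a*) to 7.38, 9.24, 8.83 and 10.5. None of these sums was higher in both miR-128OE libraries than in both Ctrl libraries.

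The sums that were higher in both miR-128OE libraries, beside those of cardiomyocytes and smooth muscle, were erythroid and brown fat. Erythroid genes, led by *Alas2*, summed to 44.7 and 32.1 CPM in Ctrl and 78.5 and 71.5 in miR-128OE, while the globin genes *Hba-a1*, *Hba-a2*, *Hbb-bs* and *Hbb-bt* were listed at 0 in every library. Brown fat genes, led by *Cidea*, summed to 33.4 and 33.6 CPM in Ctrl and 71.6 and 55.1 in miR-128OE. Of the 4 brown fat genes tested, 3 rose and 1 did not pass, with a median log2 difference of 1.00. *Lep* was at 0 in both Ctrl libraries, and *Ucp1*, the uncoupling protein of that tissue, had 56, 3, 253 and 189 counts. Epicardial genes, led by *Msln*, summed to 127, 56.8, 76.7 and 66.3 CPM, and Schwann cell genes to 62.1, 54.3, 47.3 and 50.3. The part of these cell types in the AP-1 values was not tested.

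**Figure D4:**
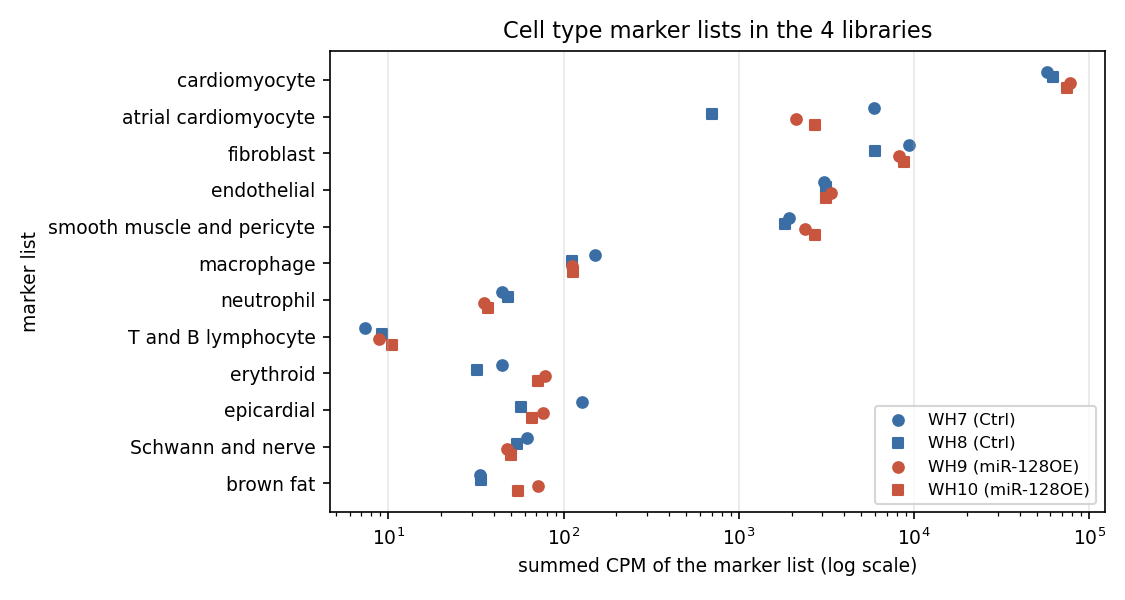
Summed CPM (log axis) of each cell type marker list in the 4 libraries (Ctrl blue, miR-128OE red). Atrial markers separate WH7 (5882 CPM) from WH8 (702 CPM) within Ctrl, whereas cardiomyocyte, smooth muscle, erythroid and brown fat markers lie higher in both miR-128OE libraries.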

How the data were processed

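Hearts at P7 were profiled by RNA-seq, with 2 Ctrl and 2 miR-128OE libraries. The authors filtered reads by quality, aligned them to mm10 with TopHat2 and deposited raw counts per gene. The submitters' processing notes also name bcl2fastq and edgeR. Gene models, the use of strand and the treatment of reads that match several genes are not given in the sources used here. Counts were keyed by Entrez Gene identifier, and 24380 of 24454 were matched to a symbol.

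The whole table was fitted with edgeR 4.0.16 (R 4.3.3), using filterByExpr with a minimum count of 10, TMM, quasi-likelihood test, Benjamini-Hochberg adjustment over 14266 genes, threshold 0.05. Normalized counts were scaled by TMM to an effective library of 11772977 counts, the mean of the 4. The SE was derived from the log2 fold change and the square root of F. No libraries of a group were duplicates (chi-square per degree of freedom of 9.91 for Ctrl and 4.82 for miR-128OE). On simulated counts of this design, false calls ran above the nominal rate of the threshold.

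The AP-1 genes, the gene lists and the tests were chosen with earlier results of these data known. Genes named are the 9 AP-1 genes, the 3 of each pathway list with the smallest p, *Srf*, *Egr1* and *Myc*, the leading gene of each marker list per length and the 5 nearest profiles. Others named in the marker lists were chosen after their values were seen. A few genes that the rule would name are not reported here. Gene structures and 3′UTRs (the longest annotated per gene) came from GENCODE M21, and promoters and miR-128 from RefSeq GRCm38.p6, with motifs searched on both strands in Python 3.11.15. Alternatives were DESeq2 1.42.0, other tests, scalings and filters, an offset for GC content and length, and each library left out.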

Additional observations from a re-analysis of the deposited data

How the results depend on the processing

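Over the alternatives run, the log2 difference of *Fos* ranged from 3.03 to 3.16 and that of *Fosl2* from 0.18 to 0.36. The direction of the AP-1 genes was part of how they were chosen, so the number of them past a threshold is no measure of stability. Scaling by total counts moved the median of all genes to -0.11 and that of the AP-1 genes to 0.85, and the share of higher genes among those past the threshold from 52.3% to 35.3% (44.2% with upper-quartile factors). Of 642 recomputed values, 71 moved, and the cause was not tested. List medians near 0 changed sign, to 0.02 with the GC and length offset and 0.01 without WH8 for upstream factors, to -0.01 with upper-quartile factors and -0.07 with total counts for kinases, to 0.05 without WH8 for turnover genes, and to between -0.08 and -0.02 for genes with AP-1 sites (upper-quartile factors, total counts, without WH8 or WH9). Without WH7 the median of genes with AP-1 sites moved the other way, from 0.02 to 0.14. Genes lower over the whole table numbered 1410 by DESeq2. Lower bZIP partners numbered 1 with DESeq2 size factors or by DESeq2, 5 with total counts and 4 with the GC and length offset. Total counts gave 5 lower upstream factors, 3 higher and 5 lower kinases (4 lower with upper-quartile factors) and 2 lower turnover genes. The likelihood ratio test gave 1 lower immediate-early gene. Turnover genes gave 0 lower by DESeq2, 2 lower without a filter and 1 higher with the offset, which also gave 1 lower AU-rich decay factor. Genes with AP-1 sites gave 0 lower by DESeq2 and 2 without a filter. With one library left out in turn, where the lone library is assumed to vary like the other group, 897 to 2654 genes were higher and 667 to 2384 lower. Higher and lower genes then numbered 1 to 3 and 0 to 2 bZIP partners, 1 to 4 and 1 to 4 upstream factors, 0 to 7 and 1 to 5 kinases, 1 to 6 and 1 to 3 AU-rich decay factors, 0 to 1 and 0 to 2 turnover genes, and 2 to 6 and 0 to 4 genes with AP-1 sites, with 0 to 1 lower chaperones. Of the 25 named pathway genes past the threshold, 9 did not pass without WH9 and 7 without WH10. Low counts, as for *Fosb*, and 2 libraries per group limit precision. No paired analysis was possible because the labels give no replicate numbers that the groups share.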
